A study of Rattus norvegicus with 6 samples.

Results

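Transcripts of the cell division cycle were examined in cultured rat cortical neurons: cyclins, cyclin-dependent kinases and their inhibitors, mitotic kinases and checkpoint proteins, DNA replication enzymes, and the transcription factors of the G1 phase. Of 43 genes chosen by name, 40 had a probe set naming exactly 1 gene, out of 14506 such genes on the array. The brightest such probe set represented each gene. Mki67, Mcm3 and Mcm4 had none in the annotation used, so no transcript level is given for them. The neurons came from cortices of Sprague-Dawley rat embryos of day 18 and were grown for 3 days in NB-N2 medium. Transcript levels were measured on 6 one-colour Affymetrix arrays, of which 3 held RNA of neurons given 10 nM of C1q, the recognition protein of the classical complement pathway, for 3 h, and 3 held RNA of untreated neurons. The labels do not say whether replicate numbers stand for separate cultures or embryos, so the spread between arrays may be technical.

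Dividing cells commit to a new cycle when D-type cyclins activate Cdk4 and Cdk6, which phosphorylate the retinoblastoma protein Rb1 and release E2F factors. E2F factors then induce the replication genes, and a later wave of genes for mitosis follows in G2. Neurons leave the cycle for good when they are born from radial glia and intermediate progenitors, but they keep transcribing several early-cycle genes, and Cdk5, named for its kin, serves neuronal migration and synapses rather than division.

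The control regions of many of these genes carry short motifs for factors of the early or the late wave. The search covered 250 bases before the start of the gene in the RefSeq table of the GRCr8 rat assembly, on both strands, and 31 of the 43 genes had an entry. The motif of the cell cycle genes homology region, read as TTTGAA and bound by the MuvB complex, was in 6 of 15 promoters of mitosis genes (40%), 1 of 8 of replication genes and none of the other 8, against 16.2% of all 33469 promoters in the table. The CCAAT box, bound by the factor NF-Y, was in 11 of 15 mitosis and 6 of 8 replication promoters, against 34% of all promoters, a like share in both roles. An E2F motif, read as TTTGGCGC or TTTCCCGC, was in 4 of 8 replication promoters and 1 of 15 mitosis promoters, against 1.21% of all. These counts include Mki67 and Mcm3. Over measured genes alone the homology region was in 5 of 14 mitosis promoters, the CCAAT box in 10 of 14 mitosis and 5 of 7 replication promoters, and the E2F motif in 4 of 7 replication promoters. Among the 31 promoters, matches of different motifs overlapped 1 time. The last 120 bases before the start are shown for 4 mitosis genes and 2 replication genes, because Top2a is the gene against which the other genes are set below. The others were picked as examples of promoters that hold the motifs, so they do not stand for their roles: 9 of 15 mitosis promoters had no homology region and 4 of 8 replication promoters no E2F motif. Capitals mark matches of the motifs on either strand, so that the CCAAT box can read ATTGG and the homology region TTCAAA.
Top2a (chr10:84473094-84473213, minus strand): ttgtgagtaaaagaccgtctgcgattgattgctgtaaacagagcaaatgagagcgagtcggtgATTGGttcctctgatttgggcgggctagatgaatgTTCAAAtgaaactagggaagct
Cdk1 (chr20:19265173-19265292, plus strand): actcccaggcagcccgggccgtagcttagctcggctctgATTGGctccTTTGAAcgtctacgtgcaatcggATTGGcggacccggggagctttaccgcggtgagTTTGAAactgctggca
Cdc20 (chr5:137255800-137255919, minus strand): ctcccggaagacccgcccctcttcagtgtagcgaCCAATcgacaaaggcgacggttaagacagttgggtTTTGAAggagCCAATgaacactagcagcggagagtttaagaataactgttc
Ccnb2 (chr8:79981659-79981778, minus strand): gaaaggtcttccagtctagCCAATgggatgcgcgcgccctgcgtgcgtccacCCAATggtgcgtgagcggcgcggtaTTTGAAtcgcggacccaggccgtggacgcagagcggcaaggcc
Tyms (chr9:120776084-120776203, minus strand): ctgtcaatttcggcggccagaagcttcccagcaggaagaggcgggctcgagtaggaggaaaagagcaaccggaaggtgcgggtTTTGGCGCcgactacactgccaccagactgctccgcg
Mcm5 (chr19:13488693-13488812, plus strand): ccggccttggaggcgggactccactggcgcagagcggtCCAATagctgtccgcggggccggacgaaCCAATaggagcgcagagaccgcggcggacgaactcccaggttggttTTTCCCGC
The Top2a, Cdk1, Cdc20 and Ccnb2 stretches hold both a homology region and at least 1 CCAAT box. Tyms has an E2F motif alone, and Mcm5 has an E2F motif next to the start of the gene with CCAAT boxes before it. These are matches of letters in a window and not measured binding.

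The labelled cell type was checked against marker genes. All 8 neuron markers with a probe set, such as Dcx and Tubb3, lay above an intensity of 94.4, the level that separates the brightest 60% of probe sets from the rest. So did 7 of 8 radial glia and progenitor markers, 5 of 6 astrocyte markers, 3 of 4 oligodendrocyte lineage markers, 1 of 6 microglial markers, 2 of 6 endothelial markers and 5 of 7 mural and meningeal markers. Gfap, the astrocyte filament gene, lay below it, at 47.6 after C1q and 51.7 in untreated neurons. Array medians ran from 147 to 155, and the deposited values carry no detection calls, so the background under each intensity is unknown. Brightness depends on the probes as well as on the transcript, so intensities of different genes do not compare their mRNA levels.

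All 40 cell cycle genes lay above the filter intensity in these cultures, where the filter by its setting keeps 60% of all probe sets. Of a wider list of other cell cycle genes described below, 83 of 89 with a probe set did so. Lying above the filter does not show that cells were dividing. Because a culture was measured in bulk, the share of cycling cells and the RNA per cycling cell cannot be told apart.

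After 3 h of C1q, none of the 40 genes was called as changed, which does not show that they were unchanged. The intervals given here rest on the spread between arrays. That spread may be technical, so they may not bound the change over separate cultures. The 95% intervals of all 40 genes stayed inside a 1.3-fold change in either direction, as did those of 91.4% of the 17529 probe sets tested. This limit was chosen after the intervals were seen. At a stricter limit of 1.25-fold it held for 40 of 40 genes and 83.6% of all probe sets, and for 35 to 38 of the 40 when 1 array was left out. Fold changes were computed on log2(intensity + 16), which understates the change of dim genes, by a limma fit to all 17529 probe sets. In that fit 0 genes were higher and 0 lower at an adjusted p under 0.05, where 0% of all probe sets were called in either direction, and every one of the 40 had an adjusted p of 0.9999. Of the 40, 0 had an unadjusted p under 0.05, against 2.49% of all probe sets. The C1q and untreated arrays overlapped for all 40 genes, while they did not overlap for 5.72% of all probe sets. Means were higher after C1q for 16 genes and lower for 24, or 40% higher, against 36.7% of all probe sets. Quantile normalization gave 20 higher and 20 lower, against 50.8% of all, and median centring 22 and 18, against 55.4%. Without untreated array 2 the count was 8 higher and 32 lower, against 31.0% of all higher. The median log2 fold change was -0.02 over the 40 genes and -0.02 over all probe sets tested.

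**Figure D1:**
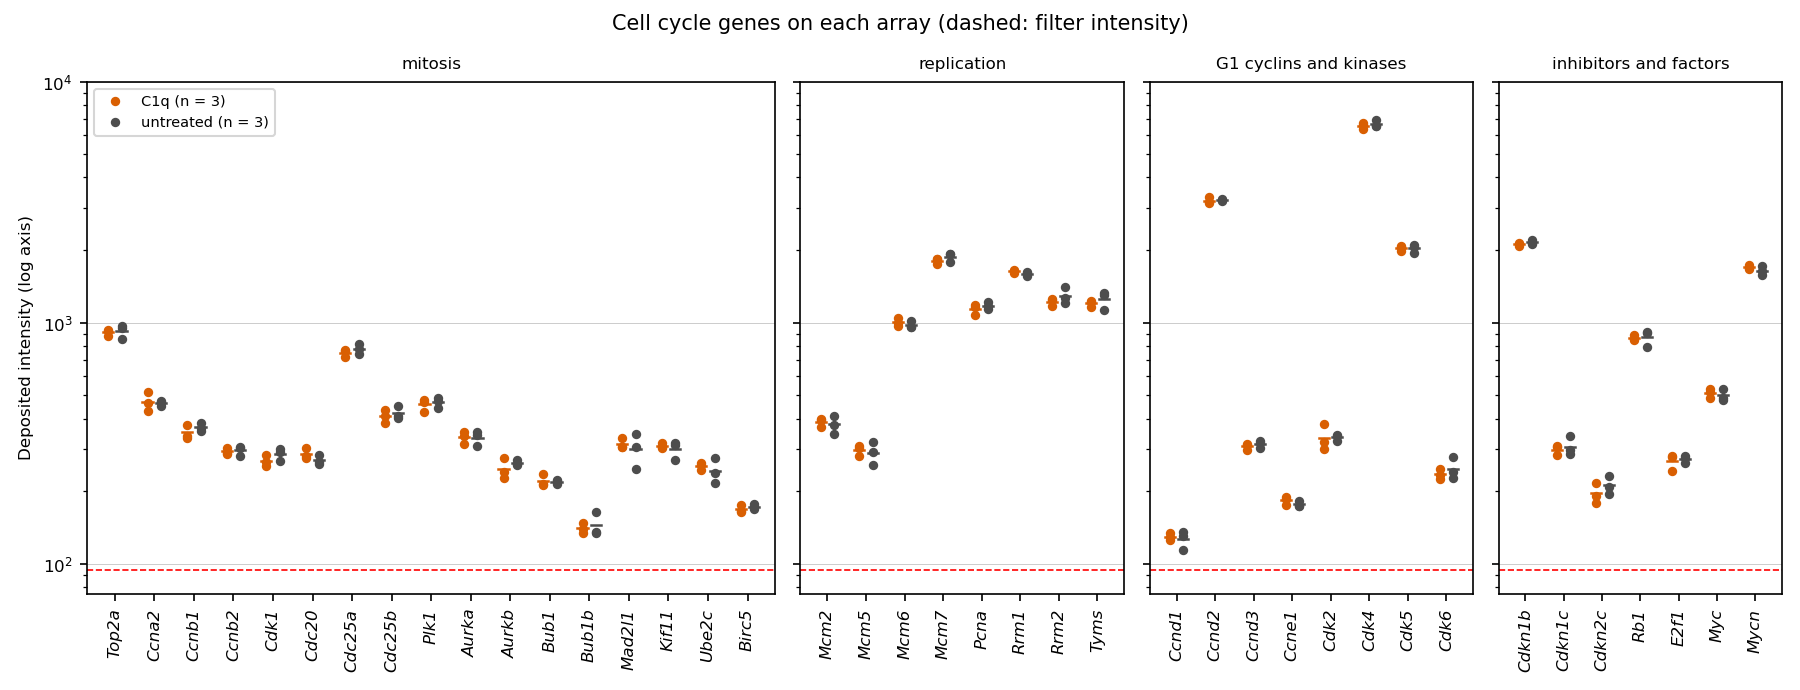
Deposited intensity (log axis) of the 40 cell cycle genes, by role, with 1 point for each array of C1q-treated neurons (orange, left, n = 3) and untreated neurons (grey, right, n = 3), a short line at each mean, and a dashed line at the filter intensity of 94.4. The points of both groups overlap for every gene, and all genes lie above the dashed line.

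In dividing cells, transcripts of mitosis genes accumulate mostly in late S, G2 and M phase. Whether the intensities here came from cells that still divide was not tested. Top2a encodes the topoisomerase that untangles chromosomes before they separate. It read 927, 933 and 877 on C1q arrays 1 to 3, against 967, 859.5 and 951 on untreated arrays 1 to 3. The lowest of the 6 values came from untreated array 2, and the C1q values all lay between the lowest and the highest untreated value. Its fold change was 0.987 with a 95% interval of 0.902 to 1.08.

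Cdk1, the kinase that drives entry into mitosis, read 254, 282 and 264 on the C1q arrays and 299.6, 266 and 291 on the untreated arrays. The C1q values sat lower apart from array 2, which lay above untreated array 2. Its fold change was 0.938 (0.832 to 1.06), with an unadjusted p of 0.266 in the limma fit, the smallest among the mitosis genes. The B-type cyclin Ccnb1, partner of Cdk1, read 334, 378 and 341 after C1q and 366, 357 and 384 in untreated neurons, a fold change of 0.952 (0.852 to 1.06). Both groups overlapped through C1q array 2. Ccna2, the A-type cyclin of S and G2 phase, read 429.9, 517 and 466 after C1q, against 473, 452 and 467 in untreated neurons. The C1q arrays spread around the narrow untreated range on both sides, with a SD of 43.9 after C1q and 11.0 in untreated neurons (n = 3 each).

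Cdc20 activates the ligase that ends metaphase. Its intensities were 303, 279 and 276 after C1q and 282, 259 and 266 in untreated neurons, a fold change of 1.06 (0.943 to 1.19) with the smallest unadjusted p, 0.302, among genes with a higher mean in the same fit. C1q array 1 lay above all others, and untreated array 1 lay above both remaining C1q arrays. Ube2c, the ubiquitin-conjugating enzyme that works with that ligase, read 261, 258 and 246 after C1q, against 238, 275 and 216 in untreated neurons. Here the untreated arrays enclosed all C1q values, and untreated array 2 was the highest, the reverse of Top2a.

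Plk1, a kinase of spindle assembly and mitotic exit, read 480.1, 469 and 427 after C1q and 487, 443 and 474 in untreated neurons, and its fold change was 0.980 (0.883 to 1.09). Birc5, which encodes survivin of the chromosomal passenger complex, read 165, 175 and 166 after C1q, against 177, 169 and 173 in untreated neurons. The ranges of both groups overlapped for Plk1 and for Birc5. Among the other 9 mitosis genes, the checkpoint gene Bub1b averaged 141 after C1q and 144 in untreated neurons, and the phosphatase gene Cdc25a 752 after C1q and 779 in untreated neurons. Fold changes were 0.944 for Aurkb and 1.00 for Aurka, the kinases of the chromosomal passenger complex and of the centrosomes, 1.03 for the spindle motor gene Kif11 and 1.01 for the checkpoint kinase gene Bub1. Cdc25b, a phosphatase that activates Cdk1, had 0.970. Mad2l1, which encodes the spindle checkpoint protein Mad2, varied most of the 40 genes over the 6 arrays. It read 305, 332 and 305 after C1q and 306, 248 and 346 in untreated neurons, so that its extremes were both untreated arrays and differed 1.39-fold. The median ratio of the highest to the lowest array was 1.15 over the 40 genes and 1.17 over all probe sets tested. Ccnb2 had 2 probe sets, with log2 fold changes of -0.01 and 0.01.

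Replication genes mark cells preparing or carrying out DNA synthesis. Rrm2, the regulated small subunit of ribonucleotide reductase, read 1175, 1249 and 1239 on the C1q arrays and 1211, 1262 and 1402 on the untreated arrays. The untreated mean was raised by array 3, and the other untreated arrays lay within or close to the C1q range. Its fold change was 0.947 (0.865 to 1.04), with an unadjusted p of 0.217 in the limma fit, the smallest of the 40 genes. A fit with array weights, in which untreated array 3 had a weight of 5.51 against 0.335 to 1.81 for the others, called Rrm2 lower, at an adjusted p of 0.0393 in limma and a log2 fold change of -0.19. It was 1 of the 40 genes, or 2.5%, that this fit called lower, against 1.81% of all probe sets, a share near the background. It called 0 of the 40 higher, against 0.742% of all. Over all alternatives tried, the adjusted p of Rrm2 ran from 0.0393 to 1. The second Rrm2 probe set had a log2 fold change of -0.09, beside -0.08 for the first. Rrm1, the large subunit, had 1.02 (0.955 to 1.09), and its fainter probe set 1.01.

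Tyms, the thymidylate synthase gene, read 1220.1, 1235 and 1157 after C1q and 1307, 1128 and 1332 in untreated neurons. Untreated array 2 was again the lowest and the C1q values fell inside the untreated range. Pcna, the sliding clamp of the replication fork, read 1188, 1075 and 1159.8 after C1q, against 1171, 1138 and 1219 in untreated neurons. On C1q array 2, where most cell cycle genes read high, Pcna had its lowest value.

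The Mcm genes encode subunits of the replicative helicase. Mcm2 read 395, 397 and 371 after C1q and 378, 347 and 410.0 in untreated neurons, with the C1q values inside the untreated range. Mcm6 read 971, 1045 and 999 after C1q, against 957, 958 and 1018 in untreated neurons, a fold change of 1.03 (0.948 to 1.11). Mcm7 read 1745, 1843 and 1836 after C1q and 1918, 1790.4 and 1919 in untreated neurons, a fold change of 0.964 (0.897 to 1.04). Mcm5 had 1.03 (0.900 to 1.18). Of the 4 measured Mcm genes 3 had a mean higher after C1q, and the groups overlapped for each.

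G1 cyclins and their kinases are made by cycling progenitors, and some persist in neurons. Ccnd2, a D-type cyclin of cortical progenitors, read 3122, 3314 and 3172 after C1q, against 3254, 3206 and 3233 in untreated neurons. Its untreated arrays varied least of all 40 genes, with a coefficient of variation of 0.749%. Ccnd1, another D-type cyclin of progenitors, read 135, 125 and 129 after C1q and 131, 115 and 135 in untreated neurons, above the filter intensity on each array. Ccnd3 had a fold change of 0.981. Ccne1, the cyclin that activates Cdk2 at the start of S phase, read 189.9, 185 and 175 after C1q, against 183, 174 and 173 in untreated neurons. The ranges overlapped for each of these cyclins.

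Cdk4 read 6588, 6728 and 6348 after C1q and 6919, 6525 and 6567 in untreated neurons, a fold change of 0.983 (0.921 to 1.05). Cdk6 read 225, 248 and 233 after C1q, against 278, 226 and 239 in untreated neurons. Only untreated array 1 stood above the C1q range of Cdk6. The neuronal kinase gene Cdk5 read 1980.3, 2069.8 and 2051 after C1q and 2094, 1939 and 2066 in untreated neurons. Its mean was 2034 ± 47.1 after C1q and 2033 ± 82.4 in untreated neurons (SD, n = 3 each), the closest agreement of means among the 40 genes, with an interval of 0.932 to 1.07. Cdk2, the kinase of S phase entry, had a fold change of 0.990 with a SD of 41.5 after C1q and 11.3 in untreated neurons (n = 3 each), since C1q array 2 read 379.8 and the other C1q arrays 300.5 and 319.

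Inhibitors of cyclin-dependent kinases hold neurons out of the cycle. Cdkn1b, which encodes p27, read 2089, 2113 and 2131 after C1q, against 2195, 2135 and 2125 in untreated neurons. Its highest and lowest arrays differed 1.05-fold, the narrowest range of the 40 genes. Cdkn1c, which encodes p57, read 282, 308 and 304 after C1q and 295, 284 and 338 in untreated neurons. Cdkn2c, which encodes p18, an inhibitor of Cdk4 and Cdk6, read 217, 192 and 179 after C1q, against 209, 195 and 231 in untreated neurons. Its fold change of 0.931 was the lowest of the 40 genes, and its interval of 0.804 to 1.08 included no change. Rb1, the gatekeeper of S phase, read 857, 890.2 and 844 after C1q and 917, 794 and 911 in untreated neurons, so that untreated arrays held both extremes.

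Of the transcription factors, Mycn, which sustains progenitor growth, read 1742, 1681 and 1675 after C1q, against 1719, 1637 and 1569 in untreated neurons. C1q array 1 was the highest and untreated array 3 the lowest, with a fold change of 1.04 (0.961 to 1.11). Myc read 516, 532 and 487 after C1q and 531, 479 and 488 in untreated neurons, a fold change of 1.02 (0.927 to 1.13). E2f1, the factor released by Rb1, had a fold change of 0.981 (0.868 to 1.11).

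The median change was close to 0 in each role. Means were higher after C1q for 7 and lower for 10 of 17 mitosis genes, 4 and 4 of 8 replication genes, 3 and 5 of 8 G1 cyclins and kinases, and 2 and 5 of 7 inhibitors and transcription factors. The median log2 fold changes of these groups were -0.02, -0.01, -0.01 and -0.03 in that order. All 40 log2 fold changes lay between -0.10 and 0.08.

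**Figure D2:**
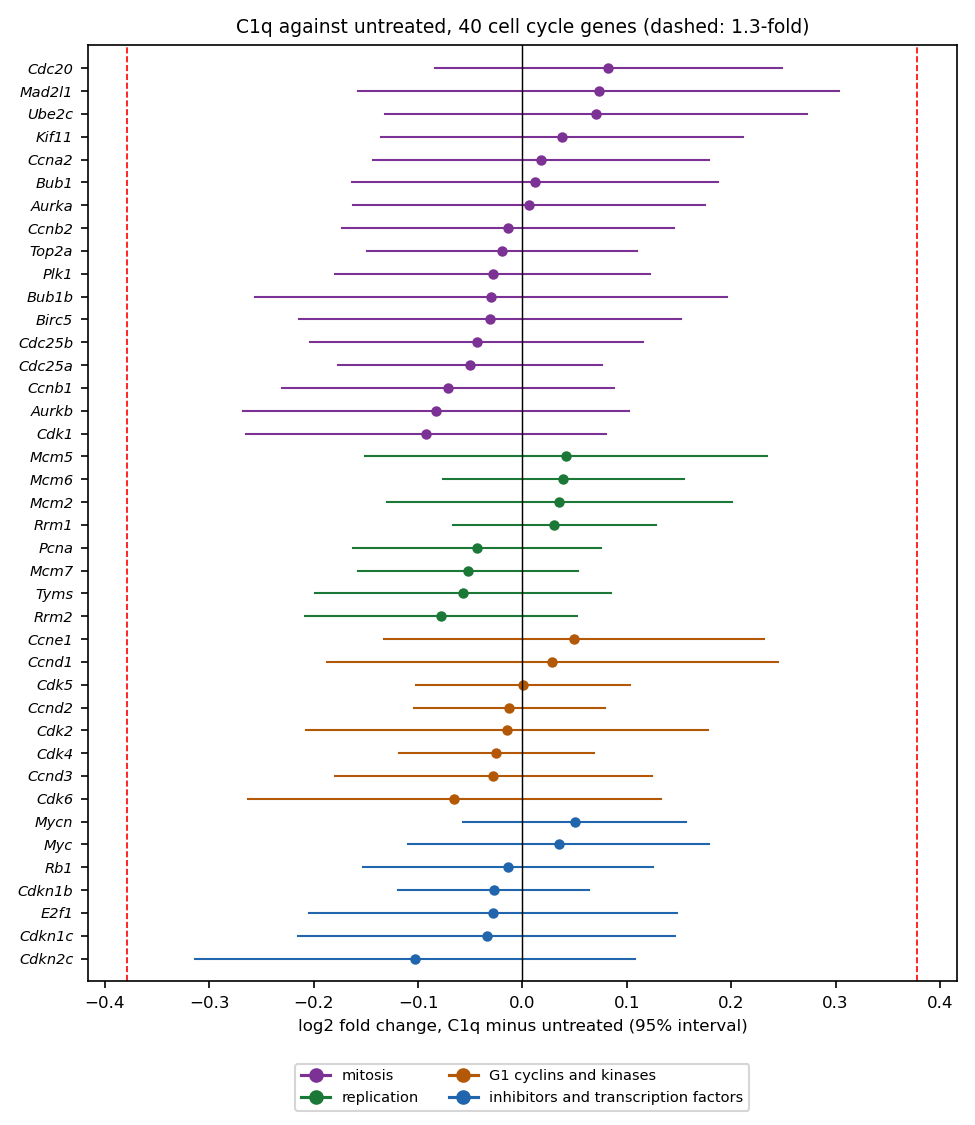
Log2 fold change of each cell cycle gene, C1q minus untreated, as a point with its 95% interval from the limma fit, coloured and ordered by role. Every interval crosses 0, and none reaches the dashed lines at 1.3-fold in either direction.

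A wider list of 107 other cell cycle genes, covering origin licensing, polymerases, kinetochores, condensins and checkpoints, gave the same count of calls. Of these, 89 had a probe set and 83 were tested, with 0 higher and 0 lower at an adjusted p under 0.05 in limma, 30 means higher and 53 lower, and a median log2 fold change of -0.02. Tk1, the thymidine kinase gene of the nucleotide salvage pathway, was the only one of the 83 with an unadjusted p under 0.05, at 0.0224 and an adjusted p of 0.9999 in limma. It read 158, 171 and 175 after C1q, against 208, 189 and 202 in untreated neurons, with all C1q arrays below all untreated ones. The fold change of Tk1 was 0.854 (0.749 to 0.974), and the fit with array weights called it, 1 of the 83 against the same 1.81% called lower of all probe sets. Gins1, a subunit of the helicase complex, had a fold change of 0.881, and Chek1, the replication checkpoint kinase gene, 0.911, each with overlapping arrays. On the other side, Pola1, the catalytic subunit of the primase-associated polymerase, read 381, 407 and 381 after C1q, against 352, 347 and 380.1 in untreated neurons, without overlap but with an adjusted p of 0.9999 in limma. The groups did not overlap for 2 of the 83 genes, Tk1 and Pola1, against 5.72% of all probe sets. Cdca3 and the kinetochore gene Spc25 each had a fold change of 1.07.

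Markers of the cells that could still divide were set beside these genes. The summed intensity of the 8 radial glia and progenitor markers ran from 7980.4 to 8286 on the C1q arrays and from 8301 to 8501 on the untreated arrays, without overlap. This gap was narrow. Without Fabp7 the sums ran from 5925 to 5992 after C1q and from 5943 to 6180 in untreated neurons, with overlap. The other markers were not left out in turn, so the gap cannot be credited to Fabp7 alone. Means of Sox2, Hes1 and Slc1a3 were higher after C1q, and each of the 8 markers overlapped between the groups. Fabp7, a radial glia gene, read 2055, 2269.9 and 2308 after C1q, against 2268 to 2542 in untreated neurons, with an unadjusted p of 0.0792 and an adjusted p of 0.9999 in limma. Summed oligodendrocyte lineage markers ran from 475 to 522 after C1q and from 498 to 532 in untreated neurons, and astrocyte markers from 2574 to 2638 after C1q and from 2567 to 2698 in untreated neurons. The larger part of the astrocyte sum was Aldoc, at 1552 to 1585 after C1q and 1563 to 1644 in untreated neurons. Mural and meningeal markers ran from 7286 to 7528 after C1q and from 7464 to 7910.2 in untreated neurons. Most of that sum was Acta2, at 6533 to 6753 after C1q and 6732 to 7013 in untreated neurons. Endothelial markers summed to between 402 and 459 after C1q and between 428 and 476 in untreated neurons, and microglial markers to between 394 and 446 after C1q and between 390.2 and 395 in untreated neurons. Neuron markers summed to between 42333 and 44377 after C1q and between 42375 and 45874 in untreated neurons. No marker read 0, but the intensities include an unknown background, so this does not show that each cell type was present. The part of these markers in the levels of the cell cycle genes was not tested.

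Differences between single arrays were shared by many cell cycle genes. On C1q array 2, 35 of 40 genes lay above the mean of the C1q arrays, and on C1q array 3, 9 of 40. On untreated array 2, 5 of 40 lay above the mean of the untreated arrays, and on untreated array 1, 32 of 40. All tested probe sets leaned the same way on these arrays, with 63.97%, 35.5%, 33.0% and 70.3% above their group mean in that order. The remaining arrays differed in this. C1q array 1 had 16 of 40 genes above the mean, against 51.7% of all probe sets, and untreated array 3 had 25 of 40, against 47.4%. Under quantile normalization these were 15 and 25 of 40, against 50.3% and 50.2%. Of the mitosis genes 16 of 17 lay above the mean on C1q array 2, all but Cdc20, and 1 of 17 on C1q array 3, Cdc25a. After quantile normalization these counts were 13 and 3. The 83 other cell cycle genes followed, with 68 above the mean on C1q array 2, 18 on C1q array 3 and 19 on untreated array 2. Radial glia and progenitor markers had 5 of 7 tested genes above the mean on C1q array 2 and 2 of 7 on untreated array 2, and 4 and 6 of 7 after quantile normalization, so that untreated array 2 turned to the other side. After quantile normalization the counts of the 40 genes were 30 on C1q array 2, 14 on C1q array 3, 15 on untreated array 2 and 21 on untreated array 1, against 52.6%, 48.7%, 46.7% and 55.5% of all probe sets. The lean of untreated array 1 was thus no longer seen under that scaling. Median centring kept it, with 35 of 40 on untreated array 1 and 3 of 40 on untreated array 2. The shares of all probe sets were then 75.4% and 24.6%. The typical size was small: the median deviation of the 40 genes was 0.04 log2 on C1q array 2 and -0.05 on untreated array 2.

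**Figure D3:**
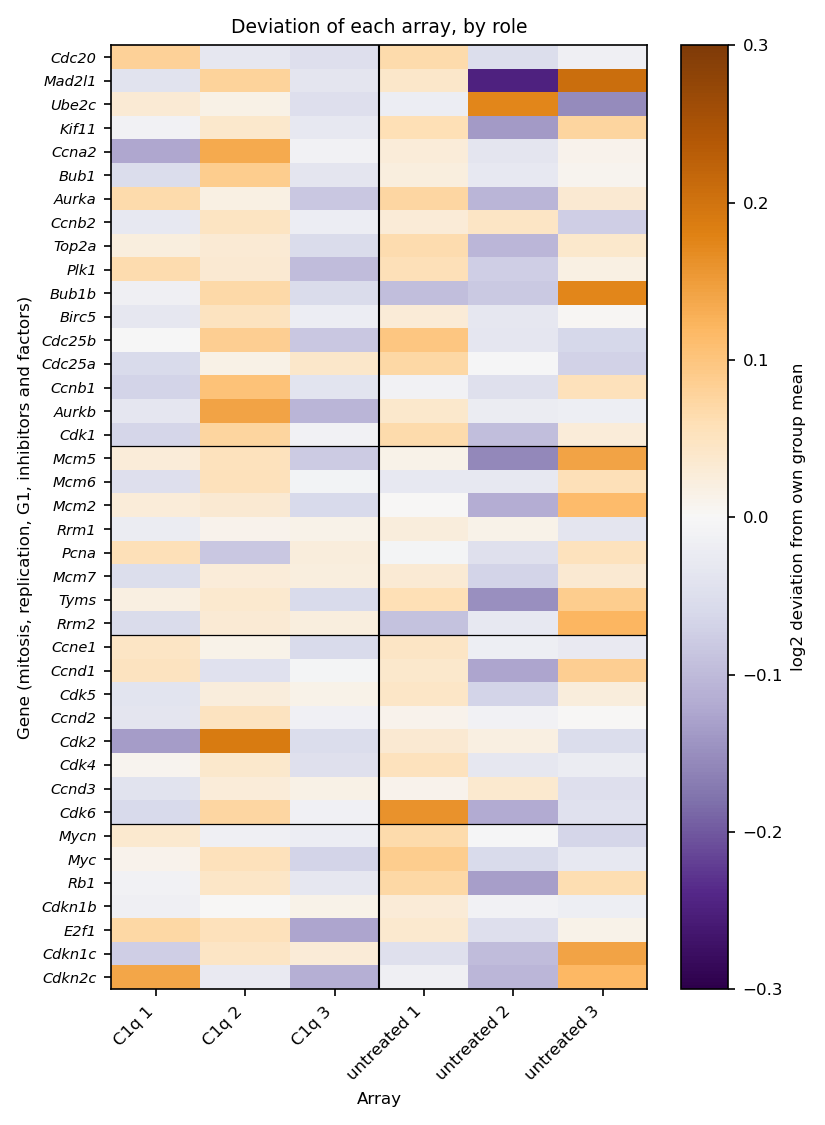
Log2 deviation of each cell cycle gene (rows, by role) from the mean of its own group on each array (columns, C1q arrays left of the line and untreated arrays right of it). In the deposited scaling the columns of C1q array 2 and untreated array 1 are mostly orange, with 35 and 32 of 40 genes above the group mean, and that of untreated array 2 mostly violet, with 5 of 40. After quantile normalization the count on untreated array 1 was 21, and after median centring 35.

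Top2a served as the yardstick for covariation, with 39 relations computed over the 6 arrays. Tyms had a Pearson r of 0.95 with Top2a (exact permutation p = 0.0069, adjusted over the 39 relations 0.126) and a Spearman rho of 0.94 (p = 0.0167, adjusted 0.325). Without the arrays farthest from the Top2a median, untreated array 2 and C1q array 3, r was 0.84. For Rb1 the r was 0.95 (exact permutation p = 0.0014, adjusted 0.0542) and rho 1.00 (p = 0.0028, adjusted 0.108), with an r of 0.90 without those arrays. Aurka had an r of 0.93 (exact permutation p = 0.0181, adjusted 0.176), which was 0.23 without them, so over the 6 arrays it rests on those, although leaving them out also narrows the range of Top2a. The same held for Kif11, with an r of 0.85 (exact permutation p = 0.0097, adjusted 0.126) and 0.40 without them. Plk1 had an r of 0.90 (exact permutation p = 0.0292, adjusted 0.228) and 0.57 without them. For Aurka, Kif11 and Plk1 rho was 0.83, 0.83 and 0.77, with exact permutation p of 0.0583, 0.0583 and 0.103 and adjusted values of 0.334 for each. No relation passed after Benjamini-Hochberg adjustment, by r or by rho.

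Other late-cycle genes followed Top2a less closely. Cdk1 had an r of 0.69 and a rho of 0.77 (exact permutation p = 0.150 and 0.103), Ccnb1 0.49 and 0.60 (p = 0.315 and 0.242) and Ccna2 0.27 and 0.66 (p = 0.614 and 0.175). Ube2c had a negative r of -0.62 and a rho of -0.77 (exact permutation p = 0.185 and 0.103). Adjusted values of these 4 genes ran from 0.334 to 0.741, and without the same arrays their r was 0.87, 0.46, 0.15 and -0.65 in that order. Over the 39 genes r was positive for 35, or 89.7%, with a median of 0.52, against 69.6% and 0.46 over all other probe sets tested. An r above 0.8 was reached by 5 of the 39, or 12.8%, against 20.4% of all others, but the order turned under other scalings, with 12.8% against 7.58% after quantile normalization and 35.9% against 30.8% after median centring. After quantile normalization r was positive for 26 of 39, or 66.7%, against 51.9%, with a median of 0.23. Probe sets of 1 array share its labelling and scaling, and what these relations owe to that was not tested.

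**Figure D4:**
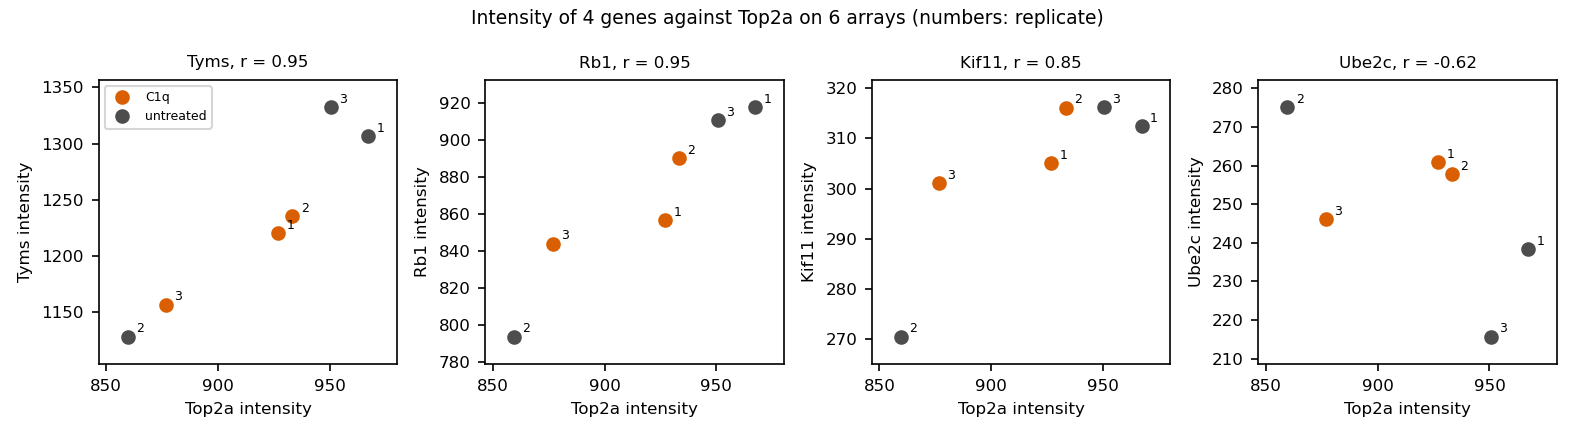
Intensity of Tyms, Rb1, Kif11 and Ube2c (vertical axes) against that of Top2a (horizontal axis) on 3 C1q arrays (orange) and 3 untreated arrays (grey), with replicate numbers beside the points. Tyms and Rb1 are higher where Top2a is higher (r of 0.95 each), Kif11 has its lowest value on untreated array 2 (r of 0.85), and Ube2c runs the other way (r of -0.62).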

How the data were processed

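The deposited table holds 29215 probe sets, each with a linear intensity on every one of the 6 arrays. Biotin-labelled cRNA was prepared from total RNA, per the labels' protocols. How probe sets were summarised, corrected for background and normalized is not stated in the labels. Signal over background is unknown, and the number of arrays limits the precision.

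Names came from the platform annotation, checked against RefSeq (GRCr8), which changed 0 symbols. Of the probe sets, 15310 named exactly 1 gene and only these were read as genes, while 323 named several and 13582 none. Intensities were analysed as log2(intensity + 16), which left the array medians within 0.070 of each other. The brightest 60% of probe sets, 17529, were tested in limma 3.58.1 (R 4.3.3) by lmFit and a trended eBayes. P-values were adjusted over all of these by Benjamini-Hochberg, with calls under 0.05. Correlations used exact permutation over 720 pairings, two-sided. The fit was tested on simulated data, where it recovered the known changes without bias but made more false calls than the nominal rate.

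Genes and lists were chosen with earlier results of these data known. Values by array are given for 27 genes set by name, where they had a probe set, and for the 4 genes of smallest unadjusted p in each direction. Of the wider list, the 3 genes of smallest unadjusted p in each direction are named. Mad2l1 and Cdk2 were singled out after their values were seen, and the 1.3-fold limit on the intervals was chosen after the intervals were seen, in place of 1.25-fold. The marker sum without Fabp7 and the motif counts over measured genes were also added after seeing the data. Alternatives covered scaling, the filter, the pseudocount, the variance model, weights for arrays, the replicate block, a gene's probe sets and leaving out each array.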

Additional observations from a re-analysis of the deposited data

How the results depend on the processing

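With array weights limma called 130 probe sets higher and 317 lower, among them 1 of the 40 genes lower (Rrm2) and 1 of the 83 others lower (Tk1). Means were higher after C1q for 9 of the 40 genes in that fit, against 42.3% of all probe sets. In the same limma fit 10 of the 40 had an unadjusted p under 0.05, and the share over all probe sets is not given here. Without the filter 1 probe set was lower. Fits without 1 array each gave 0 to 28 probe sets higher and 0 to 10 lower, with every such call made without untreated array 2. Means were higher for 8 to 23 of the 40 genes in these fits, against 31.0% to 50.2% of all probe sets. In those fits none of the 40 genes was called. The cause of these shifts was not tested. Deviations from group means correlated at 0.01, -0.45 and -0.13 between arrays numbered 1, 2 and 3. Larger values joined different numbers, with 0.45 for C1q array 3 and untreated array 2 and 0.35 for C1q array 2 and untreated array 1. Only C1q array 1 correlated best with its own number, at 0.014 against 0.010 with untreated array 2. Whether same-numbered arrays shared a culture cannot be told from this. Such deviations sum to 0 within each group and include shifts of whole arrays. A replicate block gave 9 probe sets higher and 0 lower, none of them among the 40 genes. Of 671 recomputed fold changes of the 40 genes, 664 stayed within the spread between replicates without a call, and 6 moved further, all with array weights. Intervals stayed inside 1.3-fold for 39 of 40 genes without C1q array 1 or without untreated array 3, for all 31 genes left with the brightest 40%, and for all 40 under the other settings. Inside 1.25-fold, the count was 35 to 38 of 40 without 1 array each, and 37 to 40 under the other settings that kept all 40 genes, with 37 for array weights. The direction of uncalled means changed for 0 to 13 of the 40 genes, depending on the setting. Unknown background under dim probe sets limits what an interval says of the mRNA.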
